A study of Mus musculus with 8 samples.

Results

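Stfa2, Stfa2l1 and Stfa3 are 3 genes of the mouse stefin A cluster on chromosome 16, and they were followed here in FT1CL, a line of mouse acute myeloid leukemia cells, with and without the ubiquitin ligase gene Cop1. They were selected on these same 8 libraries, for standing among the largest rises from wild-type to knockout cells on log2(RPM + 1), where RPM is junction reads per 1000000. Their levels are therefore given as a description, without a test. They were found by matching Ensembl identifiers in a table of exon-exon junctions, which held 6 of their junctions among 134051, and 3 of 13378 genes.

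The FT1CL line was made from the bone marrow of an 8-week-old mouse with a conditional Cop1 allele and Rosa26-Cre-ERT2, a Cre recombinase that 4-hydroxytamoxifen activates. Marrow was taken 5 days after a dose of 150 mg/kg of 5-fluorouracil and was transduced with a pMYs retrovirus carrying Trib1, so all 8 libraries share forced Trib1 expression, the allele system and growth in 5 ng/mL of interleukin-3. The 4 wild-type libraries are labelled Cop1 +/+ and came from untreated cells. The 4 knockout libraries are labelled Cop1 ko/ko and came from cells given 4-hydroxytamoxifen, so the drug and the genotype cannot be told apart. All come from 1 cell line, and the labels do not say that the libraries of a group are separate cultures. A p-value then sets a difference against library-to-library spread that may be no more than technical.

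Stefins are small cystatins without a secretion signal that work inside the cell, where they block cysteine proteases of the papain family by filling the cleft that holds the active site. Their main targets are lysosomal cathepsins such as cathepsins B, H, L and S. Human cells have a single stefin A gene, while the mouse genome carries a run of tandem copies. Stefin A copies are known to be abundant in mouse neutrophils and their precursors, and stefin A is also a protein of the epidermis.

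The Gencode annotation of mm10 places 10 stefin A family genes between positions 36119946 and 36455392 of chromosome 16. From left to right they are Csta1, Stfa2l1, Gm5483, Gm5416, 2010005H15Rik, Stfa1, BC117090, BC100530, Stfa2 and Stfa3. Stfa2l1 (ENSMUSG00000059657) lies on the plus strand at chr16:36156811-36161953. Stfa2 (ENSMUSG00000022902) lies on the minus strand at chr16:36403992-36408457, and Stfa3 (ENSMUSG00000054905) on the minus strand at chr16:36450537-36455392. Stfa2 and Stfa3 are neighbours, and 6 family genes separate Stfa2l1 from Stfa2. Each of the 3 has 3 exons and 2 introns, with 309 coding bases, and the table holds a junction for both introns.

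How alike the copies are decides whether a read can be assigned to 1 of them, so the bases that the junction reads cross are shown here. The windows are the 30 bases on each side of the splice, read 5′ to 3′ on the coding strand from Gencode transcripts, and capitals mark positions at which the 3 genes are not all the same. The splice from exon 1 to exon 2 runs from base 36408250 to base 36405231 in Stfa2, from 36156920 to 36159946 in Stfa2l1 and from 36455281 to 36452252 in Stfa3.
Stfa2: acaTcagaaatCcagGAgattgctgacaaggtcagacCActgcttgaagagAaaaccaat
Stfa2l1: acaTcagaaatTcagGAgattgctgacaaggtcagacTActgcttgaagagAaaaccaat
Stfa3: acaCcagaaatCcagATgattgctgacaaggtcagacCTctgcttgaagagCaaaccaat

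The splice from exon 2 to exon 3 runs from base 36405130 to base 36404152 in Stfa2, from 36160047 to 36161747 in Stfa2l1 and from 36452151 to 36450734 in Stfa3.
Stfa2: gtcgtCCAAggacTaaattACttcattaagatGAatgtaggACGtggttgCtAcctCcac
Stfa2l1: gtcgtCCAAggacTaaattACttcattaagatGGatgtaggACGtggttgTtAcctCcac
Stfa3: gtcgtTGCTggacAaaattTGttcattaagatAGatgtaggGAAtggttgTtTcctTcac

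Stfa2 and Stfa2l1 were the near-identical pair. Their coding sequences matched at 96.44% of 309 bases, with 11 mismatches and a longest shared run of 97 bases, and both of their junction windows differed at 2 bases. Stfa3 was more distant, with 80.91% identity to Stfa2 and 81.55% to Stfa2l1. Its windows differed from those of Stfa2 at 5 and 15 bases and from those of Stfa2l1 at 7 and 13 bases. None of the 6 windows occurred unchanged in the transcripts of more than 1 Gencode gene. How the authors assigned reads that fit several copies is not given in the sources used here, so the split between Stfa2 and Stfa2l1 is uncertain. Their sum is more certain only if each such read was counted at 1 copy.

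The 3 genes also share sequence upstream of their start sites. The stretches printed here are from RefSeq on GRCm38.p6 and cover the 250 bases before each RefSeq start, except that Stfa2 stops at base -95 because Gencode places its first exon 94 bases further upstream. They lie at chr16:36408458-36408613 for Stfa2, chr16:36156561-36156810 for Stfa2l1 and chr16:36455393-36455642 for Stfa3. Capitals mark runs of at least 12 bases that all 3 genes hold.
Stfa2: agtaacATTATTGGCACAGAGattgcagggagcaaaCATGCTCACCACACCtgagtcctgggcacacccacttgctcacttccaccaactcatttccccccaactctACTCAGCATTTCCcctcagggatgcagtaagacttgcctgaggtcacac
Stfa2l1: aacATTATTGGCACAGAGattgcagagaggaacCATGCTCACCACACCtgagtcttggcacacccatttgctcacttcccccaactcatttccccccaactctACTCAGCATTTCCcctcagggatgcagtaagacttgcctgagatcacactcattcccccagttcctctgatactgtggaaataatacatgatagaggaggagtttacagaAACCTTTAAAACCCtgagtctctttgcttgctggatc
Stfa3: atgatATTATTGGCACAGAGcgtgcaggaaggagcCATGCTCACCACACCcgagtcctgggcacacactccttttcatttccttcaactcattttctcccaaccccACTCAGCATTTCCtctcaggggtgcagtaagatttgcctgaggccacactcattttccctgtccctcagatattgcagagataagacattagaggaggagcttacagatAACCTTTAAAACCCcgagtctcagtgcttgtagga

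Aligned over those 250 bases, Stfa2 and Stfa2l1 were identical at 89.4% of positions, Stfa2 and Stfa3 at 80.4%, and Stfa2l1 and Stfa3 at 80.5%. Of 32851 promoter windows in the RefSeq table, each running from 250 bases before a start to 50 after it, only those of these 3 genes held AACCTTTAAAACCC or CATGCTCACCACACC. The first of these runs begins at base -33 in Stfa2, -37 in Stfa2l1 and -35 in Stfa3. In Stfa2 it lies inside the first exon of Gencode, and so outside the stretch printed. ACTCAGCATTTCC occurred in 10 of the windows, 8 of them beside a symbol of the stefin A family, and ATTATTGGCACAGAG in 5, which were those of Stfa1, Cstdc5 and the 3 genes. Both strands were also searched for 4 short motifs. The C/EBP motif TTGCNNAA was in none of the 3 windows but in those of Stfa1, Csta3 and Cstdc5, and 10.8% of all windows held it. The PU.1 motif GAGGAA was in all 3, against 28.3% of all windows. It was also in the windows of Stfa1, Cstdc4, Cstdc5 and Csta1, but not in those of Csta2 and Csta3. The match in Stfa2, at base -82, lies inside the first exon of Gencode. The AP-1 motif TGANTCA was in that of Stfa3 alone of the 3, against 7.81%, and TATAAA was in none, against 13.6%. The AP-1 match in Stfa3 lies after the start. These are matches of letters, and no binding was measured here.

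The 8 libraries held 17333302 to 22469109 junction reads. Cop1 itself fell from 162 to 73.7 RPM, a log2 fold change of -1.13 (SE 0.08, limma adjusted p = 4.9e-04). Both libraries numbered 4 stood apart for the stefin genes. Wild-type library 4 was the lowest of its group in the summed level of the family, at 5.28 RPM where the highest had 54.8 RPM. Knockout 4 summed to 217 RPM, and the other 3 knockouts to between 1528 and 3720 RPM.

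In wild-type cells the 3 genes were close to silent. Stfa2 had 9, 9, 3 and 0 junction reads in wild-type libraries 1 to 4, which is 0.429, 0.478, 0.159 and 0 RPM. In the knockout it had 4585, 7620, 2300 and 403 reads, or 224, 440, 119 and 17.9 RPM. All 4 knockout libraries lay above all wild-type libraries, with knockout 2 highest and knockout 4 lowest. A count of 0 in wild-type library 4 allows up to 0.168 RPM, the level of 3 reads there, and such limits cover counting error only.

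Stfa2l1, which lies on the far side of the cluster next to Csta1, had 1, 4, 6 and 2 reads in the wild-type libraries, or 0.0477, 0.212, 0.317 and 0.112 RPM. In the knockout libraries it had 3057, 4891, 1909 and 294 reads, or 149, 282, 98.5 and 13.1 RPM. The order of the knockout libraries was that of Stfa2, and the groups did not overlap. Stfa3 had 6, 2, 6 and 0 wild-type reads, or 0.286, 0.106, 0.317 and 0 RPM, and 3036, 6270, 1790 and 219 knockout reads, or 148, 362, 92.4 and 9.75 RPM. Again knockout 2 was highest and knockout 4 lowest, without overlap.

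**Figure D1:**
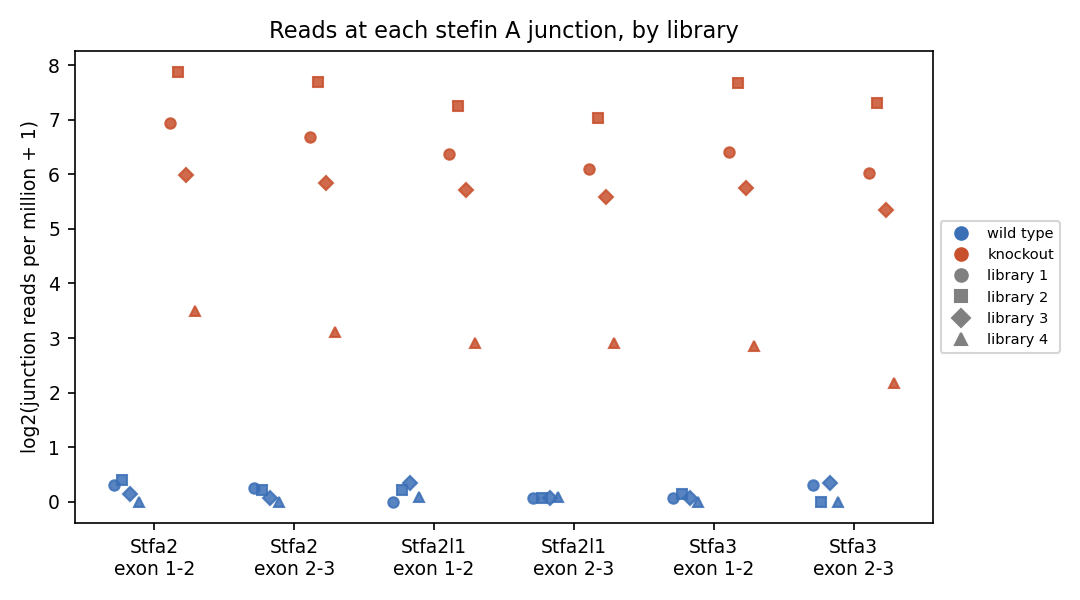
Level of each of the 6 junctions in each library, as log2(RPM + 1) on the vertical axis; colour gives the genotype and the marker shape the library number. At every junction all 4 knockout libraries lie above all 4 wild-type libraries, with knockout 2 highest and knockout 4 lowest.

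Mean levels went from 0.266 ± 0.226 to 200 ± 180 RPM for Stfa2 (SD, n = 4), from 0.172 ± 0.118 to 136 ± 113 RPM for Stfa2l1 and from 0.177 ± 0.150 to 153 ± 150 RPM for Stfa3. The log2 differences on log2(RPM + 1), knockout minus wild type, were 6.61, 6.23 and 6.20. Because wild-type levels lie below 1 RPM, these values depend on the added 1. The ratio of mean levels was 751 for Stfa2, 787 for Stfa2l1 and 862 for Stfa3, on 21, 13 and 14 wild-type reads in all, so these ratios are imprecise. With both libraries numbered 4 left out, the log2 differences were 7.40, 7.09 and 7.12. Of the 11003 genes that averaged at least 1 RPM, 7 (0.0636%) had a log2 difference at least as large as that of Stfa3. Stfa2, Stfa2l1 and Stfa3 took ranks 4, 6 and 7 in that order, and the next gene was Mmp8, for a neutrophil collagenase, at 6.19. This is the comparison on which the genes were selected.

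The knockout libraries differed from each other far more than the genes did. Relative to knockout 4, the mean of knockouts 1 to 3 was 14.5 times as high for Stfa2, 13.5 times for Stfa2l1 and 20.6 times for Stfa3. Even so, knockout 4 was 37.5, 41.2 and 30.7 times as high as the highest wild-type library for the same genes. The 3 genes were read in the same 8 libraries, so they share the depth and genotype of each. Across these, the log2(RPM + 1) levels correlated at r = 0.998 for Stfa2 and Stfa2l1, 0.997 for Stfa2 and Stfa3 and 0.998 for Stfa2l1 and Stfa3. These correlations describe 8 points in separate groups and carry no test.

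If each read was counted at 1 copy only, the sum of Stfa2 and Stfa2l1 does not depend on how reads were split between them. Whether reads were counted so was not given. The sum was 0.477, 0.690, 0.476 and 0.112 RPM in the wild-type libraries and 373, 722, 217 and 31.0 RPM in the knockout libraries. The log2 difference of the sum was 7.19, larger than that of either gene because the added 1 weighs less on a sum. All 3 genes together reached 521, 1084, 310 and 40.8 RPM in the knockout libraries, against at most 0.796 RPM in a wild-type library.

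The junctions of a gene were compared inside each library. They are not independent, since exon 2 has 102 bases in each gene and a fragment can be read at both junctions. In the knockout, the first junction of Stfa2 had 2485, 4043, 1210 and 231 reads and the second 2100, 3577, 1090 and 172, a ratio of 1.19 ± 0.106 (SD, n = 4). The ratio was 1.12 ± 0.0956 for Stfa2l1 and 1.43 ± 0.231 for Stfa3. For Stfa3 the first junction led in all 4 libraries, with ratios of 1.30 to 1.77. Stfa2l1 had 147 reads at each junction in knockout 4. So both splices of each gene were read at levels within 1.77 times of each other, and none of the 6 junctions held a value far below what the gene's other junction predicted.

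Stfa2 took the largest part of the reads of the 3 genes. Its share of their junction reads in the 4 knockout libraries was 42.9%, 40.6%, 38.3% and 44.0%, a mean of 41.5% ± 2.53 (SD, n = 4). Stfa2l1 took 29.6% ± 2.87 and Stfa3 28.9% ± 3.92. Since each gene has 2 junctions, the shares compare the genes per junction. Stfa2 exceeded Stfa2l1 by 1.20 to 1.56 times and Stfa3 by 1.22 to 1.84 times, in 4 of 4 knockout libraries. The order of Stfa2 and Stfa2l1 is uncertain, as the assignment of reads that fit both was not given. Stfa3 exceeded Stfa2l1 in 1 of 4 libraries over both junctions, but in 3 of 4 on the most-read junction alone, with mean shares of 30.7% and 28.4%, so these neighbours have no settled order. The 48 reads of the 3 genes in the wild-type libraries fell as 43.8% to Stfa2 (95% Wilson interval 30.7% to 57.7%), 27.1% to Stfa2l1 (16.6% to 41.0%) and 29.2% to Stfa3 (18.2% to 43.2%). The intervals cover counting error only, and treat pooled reads as independent although a fragment can be read at both junctions and single libraries ran from 0% to 60% for Stfa2. So few reads do not allow the split to be compared with that of the knockout.

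**Figure D2:**
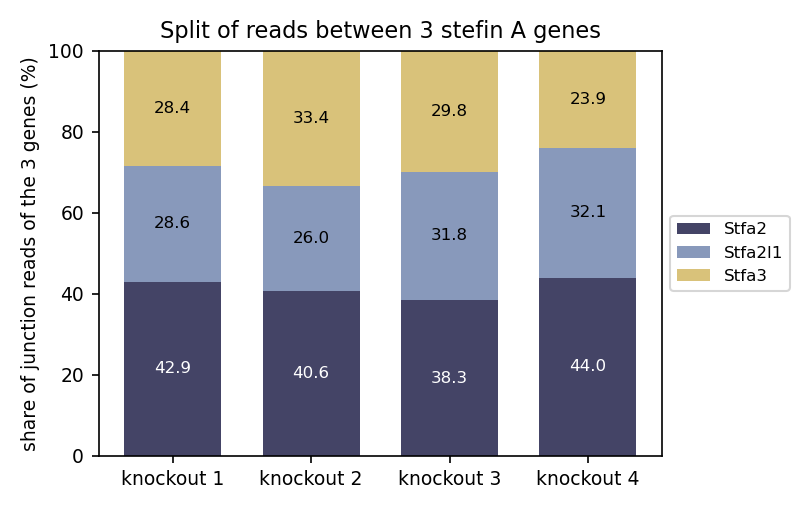
Share of the junction reads of Stfa2, Stfa2l1 and Stfa3, in percent, that fell to each gene in each knockout library. Stfa2 has the largest share in every bar, from 38.3% to 44.0%, while Stfa2l1 and Stfa3 change order between libraries. The split between Stfa2 and Stfa2l1 is uncertain.

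The rest of the cluster was read against the same contrast. Of the 10 family genes, 9 have junctions in the table, and Csta1 was not analysed here. All 9 passed the minimum of 1 RPM, but 5 did so only through their knockout libraries: the 3 chosen genes, BC117090 and Gm5416. The other 6 family genes were higher in the knockout with limma adjusted p under 0.05, where 8.49% of all 11003 genes tested were called higher. This count is no independent support, since family members share sequence with the chosen genes and with each other and some reads may be counted at more than 1 copy. For the same reason the sizes that follow are given gene by gene.

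Gm5483, a stefin A copy next to Stfa2l1 that RefSeq names Cstdc4, had a larger log2 difference than the chosen genes. It had 1.76, 0.690, 2.70 and 0.618 RPM in the wild-type libraries and 479, 1014, 402 and 76.3 RPM in the knockout, with no overlap, and its log2 fold change was 7.25 (limma adjusted p = 0.0012). 2010005H15Rik, the Csta2 gene of RefSeq, went from 1.60 ± 0.687 to 81.4 ± 51.7 RPM (SD, n = 4), a log2 fold change of 4.73 (limma adjusted p = 0.0023). It shares 96.91% of 291 coding bases with Gm5483, and their windows at the second intron are the same, so reads there may belong to either. Their sum ran from 1.54 to 4.81 RPM without the deletion and from 96.3 to 1161 RPM with it.

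Stfa1 and BC100530 differed from the chosen genes in being read in wild-type cells. Stfa1 had 14.9, 21.9, 14.8 and 1.80 RPM in the wild-type libraries and 133, 325, 212 and 16.8 RPM in the knockout. Knockout 4 lay inside the range of the wild-type libraries, so the groups overlapped. The log2 fold change was 3.33 (limma adjusted p = 0.045), and the call was lost when any 1 of the 7 libraries other than knockout 4 was left out. With the library number as a block the adjusted p was 0.0013, and without both libraries numbered 4 it was 0.0011, both from limma; these fits called 12.3% and 11.0% of all genes higher.

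BC100530, named Cstdc5 in RefSeq, had 27.6, 29.7, 21.5 and 1.46 RPM in the wild-type and 624, 1092, 497 and 60.6 RPM in the knockout libraries, a log2 fold change of 4.68 (limma adjusted p = 0.019). Leaving out knockout 1, 2 or 3 ended the call, with limma adjusted p up to 0.056. Its window at the second intron is the same as that of BC117090, so reads there may belong to either. Its junctions went in opposite directions. The junction from its second exon block to the next went from 299, 267, 194 and 16 reads in the wild type to 12776, 18904, 9618 and 1360 in the knockout. The junction named from part 1.3 of its first block to the second went from 281, 292, 213 and 10 reads down to 9, 6, 6 and 1. It was the single family junction lower in the knockout. With junctions of this kind left out, where a value fell far below that predicted from the rest of the gene, the log2 fold change of BC100530 was 5.50 (limma adjusted p = 0.0062).

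Gm5416, which RefSeq names Csta3, was at 0 reads in 3 of 4 wild-type libraries and reached 20.5, 38.7, 13.5 and 2.18 RPM in the knockout, a log2 fold change of 3.65 (limma adjusted p = 0.0099). BC117090 had 0.112 to 0.849 RPM in the wild type and 11.6, 20.5, 7.90 and 0.846 RPM in the knockout, so knockout 4 overlapped the wild-type range. Its log2 fold change was 2.49 (limma adjusted p = 0.034), and leaving out any 1 of the 7 libraries other than knockout 4 ended the call. Outside the 3 chosen genes, every knockout library lay above every wild-type library in 4 of 6 family genes, against 9.79% of all genes tested. That count is no independent support either, as the copies share sequence. Gm5416, among the 4, passed the minimum only through its knockout libraries.

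**Figure D3:**
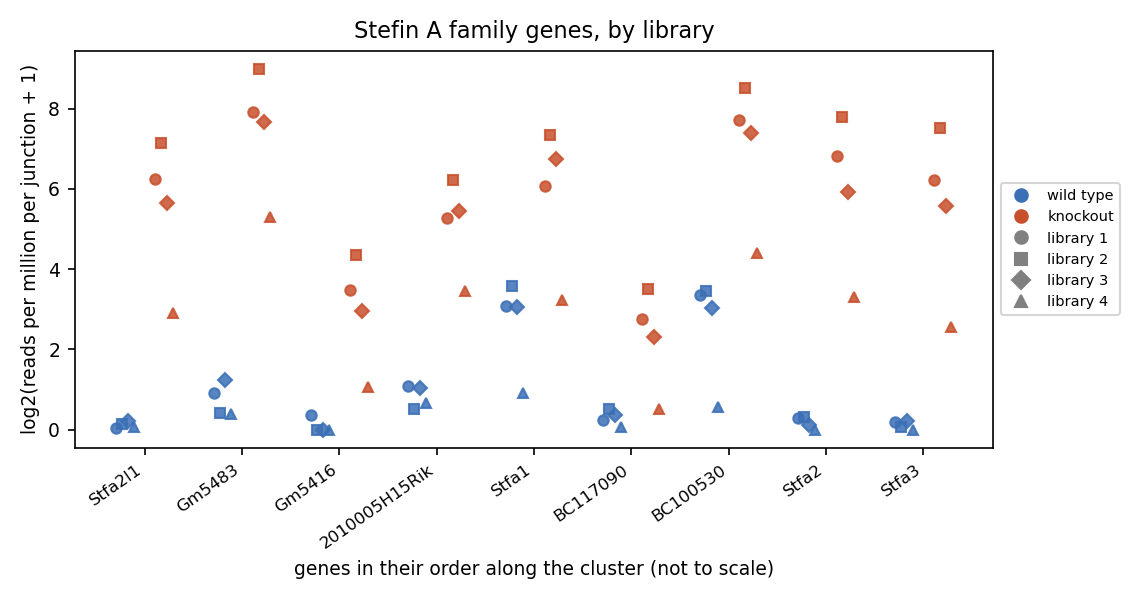
Level of each stefin A family gene in each library, as log2(RPM per junction + 1), with genes in their order along the cluster. Stfa1 and BC100530 stand above the other genes in wild-type libraries 1 to 3, and in each gene knockout 4 is the lowest knockout library.

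Wild-type reads of the family went mostly to Stfa1 and BC100530, and which of them led depended on the measure. Per junction of the gene, Stfa1 had 41.6% ± 5.19 (SD, n = 4) and BC100530 38.1% ± 12.1. On the most-read junction of each gene alone, BC100530 had 46.5% ± 11.8 and Stfa1 33.9% ± 5.99. The 3 chosen genes had under 1% each on average. In the knockout, Gm5483 had 31.8% ± 4.59 and BC100530 22.9% ± 2.19 per junction. On the most-read junction this order was turned, with 45.5% ± 3.26 for BC100530 and 21.4% ± 3.71 for Gm5483. The mean per junction divides BC100530 by 3 junctions, of which 2 held only 22 and 48 knockout reads. Per junction, Stfa2 had 11.1% ± 2.55, Stfa1 10.4% ± 3.48, Stfa3 7.86% ± 2.54 and Stfa2l1 7.82% ± 1.08. Neighbours in this order of the last 4 overlapped in range, so their order is not separated by the spread. No test was made on these shares, which come from the contrast that chose the genes.

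Genes around the cluster did not share its size of change. Within 1000000 bases of the cluster or inside it, 16 other genes were tested. Of these, 4 were higher and 1 lower, where 8.49% of all genes tested were called higher and 12.1% lower. Their median log2 fold change was -0.07, as over all genes tested. The nearest tested gene on the left, Ccdc58, 27826 bases away, went up by 0.39 on the log2 scale (limma adjusted p = 0.047). The nearest on the right, the peptide transporter gene Slc15a2, 294785 bases away, had a log2 fold change of -0.11 (limma adjusted p = 0.86). Dirc2, a lysosomal membrane transporter gene, rose by 1.11 (limma adjusted p = 0.013) and held in every alternative tried. Fam162a rose by 0.77 (limma adjusted p = 0.029). Gm15845, which runs antisense to BC100530 inside the cluster, rose by 1.98 (limma adjusted p = 0.044) and passed the minimum only through its knockout libraries; whether strand was used in counting its reads was not given. The calls on Ccdc58, Fam162a and Gm15845 were lost under at least 7 alternatives each. Polq, the gene of DNA polymerase theta, is the one that fell, by 0.35 on the log2 scale (limma adjusted p = 0.048). This call was lost with TMM scaling and without any 1 of the 7 libraries other than knockout 2, and the gene was named after its value was seen. Without both libraries numbered 4, Dirc2 and Gm15845 were higher and Parp9 was lower (limma adjusted p = 0.015), Parp9 also being named after its value was seen, where 25.1% of all genes tested were called in either direction.

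**Figure D4:**
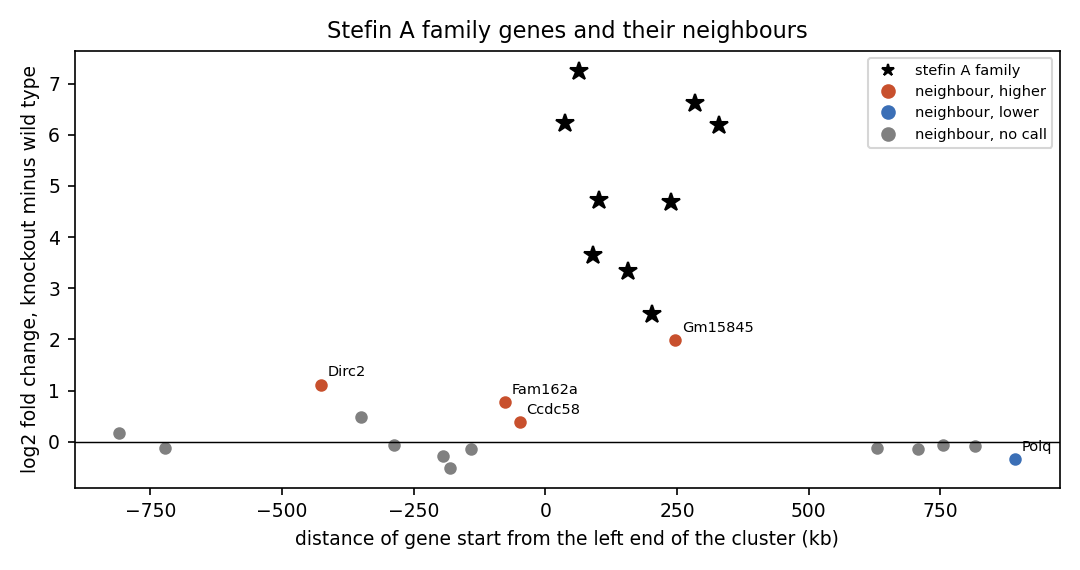
Log2 fold change, knockout minus wild type, of the 9 family genes (stars) and the 16 tested neighbours (circles) against the distance of the gene start from the left end of the cluster, in kilobases. The family genes lie between 2.49 and 7.25, and the neighbours outside the cluster between -0.51 and 1.11.

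Lysosomal cysteine proteases were counted from a list of 11 genes. It holds cathepsins of the papain family, which stefins act on, and legumain, which is outside that family. Ctsk lay below the minimum, and 10 were tested, with a median log2 fold change of 0.57. Of these, 3 were higher and 1 lower, against 20.6% of all genes tested called in either direction. Ctsb, the gene of cathepsin B, had 190, 173, 204 and 144 RPM in the wild type and 388, 535, 663 and 331 RPM in the knockout, without overlap. Its log2 fold change was 1.38 (SE 0.22, limma adjusted p = 0.0056), and it was called in every alternative. Ctsw, the gene of a cathepsin of cytotoxic lymphocytes, fell from 12.7 ± 2.85 to 2.09 ± 0.759 RPM (SD, n = 4), a log2 fold change of -2.16 (limma adjusted p = 0.0019).

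Ctsh, for cathepsin H, went from 0.571 to 9.44 RPM, a log2 fold change of 2.37 (limma adjusted p = 0.035), and passed the minimum only through its knockout libraries. Ctsl, for cathepsin L, went from 22.9 to 55.8 RPM, a log2 fold change of 1.16 (limma adjusted p = 0.049). Both calls were lost when any 1 of the 7 libraries other than knockout 4 was left out. Among the highest members without a call, Ctsz, for cathepsin Z, had a log2 fold change of 0.69 (limma adjusted p = 0.080), and Ctsc, for cathepsin C, one of -0.02 (limma adjusted p = 0.98). With the library number as a block, 5 of the 10 were called higher and 1 lower, Ctsz and Lgmn being added, where 28.0% of all genes tested were called in that fit.

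Cystatins outside the cluster moved less. Of 3 tested, 1 was higher, where 8.49% of all genes tested were, and their median log2 fold change was 0.35. Cstb, the gene of stefin B, the single-copy relative of stefin A, had 59.9, 55.9, 69.8 and 46.0 RPM in the wild type and 145, 164, 164 and 135 RPM in the knockout. The groups were apart, knockout 4 lay near the others, and the log2 fold change was 1.39 (SE 0.13, limma adjusted p = 0.0012). Cst3, for the secreted cystatin C, had a log2 fold change of 0.35 (limma adjusted p = 0.32). Cst7, for cystatin F, which acts in the lysosomes of blood cells, had one of -0.05 (limma adjusted p = 0.90), at 258 ± 58.8 RPM without and 250 ± 62.4 RPM with the deletion.

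Other protease inhibitors gave 7 higher and 1 lower of 14 tested, where 8.49% of all genes tested were called higher and 12.1% lower. Their median log2 fold change was 1.19, and 3 of those higher passed the minimum only through their knockout libraries. Serpinb1a, whose protein blocks neutrophil serine proteases, rose from 158 ± 26.3 to 901 ± 326 RPM, a log2 fold change of 2.45 (limma adjusted p = 0.0012), and knockout 4 was its highest library at 1343 RPM. Cast, for the calpain inhibitor calpastatin, rose by 1.48 (limma adjusted p = 9.0e-04) and Slpi, for a secreted inhibitor of leukocyte elastase, by 3.26 (limma adjusted p = 0.0045). Timp3, for an inhibitor of metalloproteinases, fell by 3.18 on the log2 scale (limma adjusted p = 6.6e-04), from a range of 9.79 to 19.3 RPM to one of 0.404 to 1.12 RPM. Timp2, of the same family, rose by 2.99 (limma adjusted p = 0.019), a call lost without wild-type library 2 or without knockout 1, 2 or 3. Serpinb2, for an inhibitor of plasminogen activators, rose by 2.38 (limma adjusted p = 0.021), a call lost with edgeR, with the most-read junction alone and without wild-type library 2 or 4. Spint2 had a log2 fold change of 0.04 (limma adjusted p = 0.84) and Serpinb6a one of 0.73 (limma adjusted p = 0.11).

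**Figure D5:**
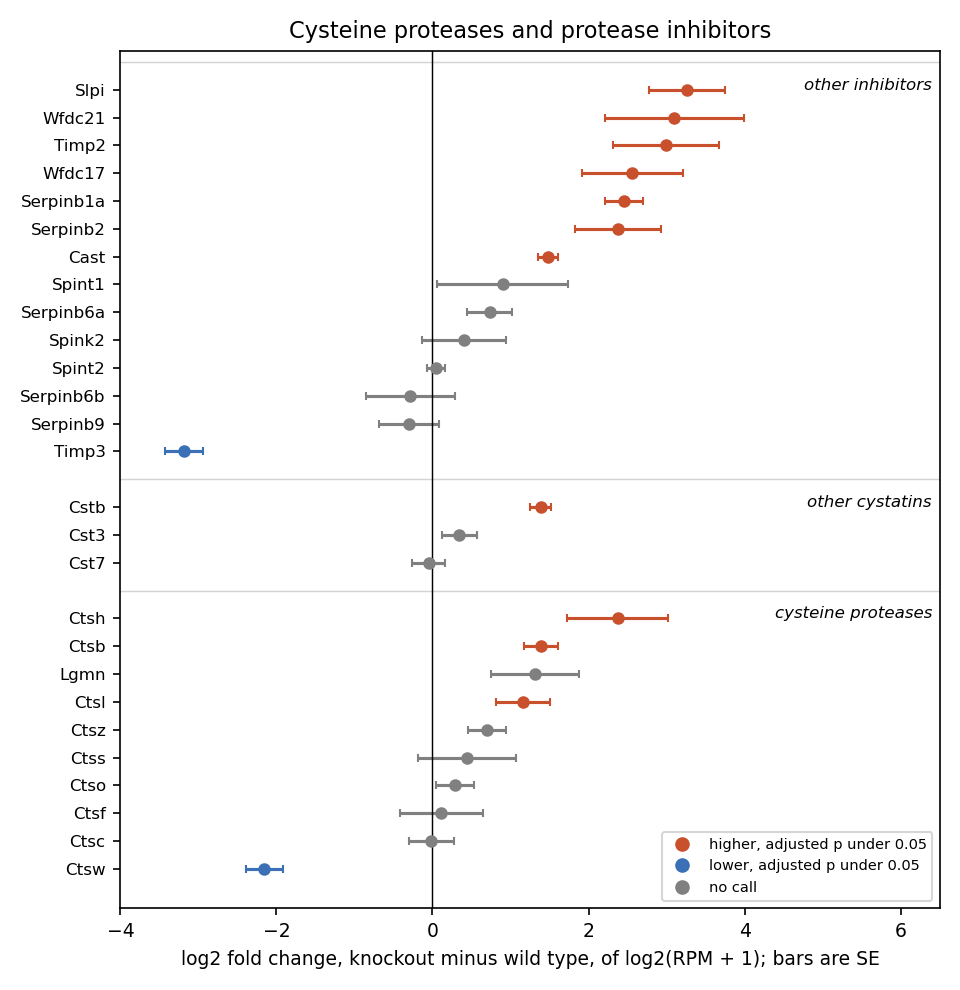
Log2 fold change, knockout minus wild type, of log2(RPM + 1), with its standard error, for tested cysteine proteases, other cystatins and other protease inhibitors (4 libraries a group). Ctsb and Cstb stand at 1.38 and 1.39, under the 6.20 to 6.61 of the chosen stefin A genes, which were selected for their rise. Ctsw and Timp3 were called lower, and the other genes below 0 had no call.

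Genes with a similar pattern over the 8 libraries were ranked by Pearson correlation with the mean log2(RPM + 1) of the 3 genes, among 7857 genes that averaged at least 10 RPM. Symbols of the Gm or Rik kind were only counted, which passed over 2 stefin A family genes, 2010005H15Rik at rank 4 (r = 0.991) and Gm5483 at rank 6 (r = 0.991). The first 5 of the others were Ltf, for the granule protein lactoferrin (r = 0.997), Rhbdf2, for an inactive rhomboid protein (r = 0.994), Ugp2, for the enzyme that makes UDP-glucose (r = 0.992), Chil1, for a chitinase-like protein (r = 0.991), and Slc27a4, for a fatty acid transporter (r = 0.990). Without both libraries numbered 4, a choice made after seeing the data, the values were 0.998, 0.999, 0.998, 0.994 and 0.991. The sizes differed widely. Ltf went from 5.99 to 2028 RPM and Chil1 from 0.365 to 55.0 RPM, while Rhbdf2 went from 61.3 to 126 RPM and Ugp2 from 72.3 to 145 RPM. Ltf, Chil1, 2010005H15Rik and Gm5483 averaged under 10 RPM in the wild type, so they passed this minimum only through their knockout libraries. All 5 named genes were higher in each knockout library than in any wild-type library, with knockout 4 the lowest of the knockouts. Both features follow largely from ranking genes by likeness to the 3 genes. Of all 11003 genes tested, 9.79% had every knockout library above every wild-type library. The correlations span 2 separate groups and carry no test.

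Markers of other cell types were counted in the same fit, where 8.49% of all genes tested were called higher. Of 14 late neutrophil markers, 9 were higher and 5 had no call, with a median log2 fold change of 3.98, and 6 of the 14 passed the minimum only through their knockout libraries. Their summed level was 38.2 to 143 RPM in wild-type libraries, 653 RPM in knockout 4 and between 5880 and 12611 RPM in knockouts 1 to 3. Camp and Cd177 were at 0 in knockout 4, and Retnlg was at 0 in all wild-type libraries. Keratinocyte markers, which mark the other tissue known for stefin A, summed to at most 5.25 RPM, with Krt10 and Ivl the markers in the table. Mast cell and basophil markers were high in both groups, at sums of 12147 to 14106 RPM and 12282 to 17474 RPM, most of it Cpa3. Of 8 tested, 5 were higher and none lower, with a median log2 fold change of 1.29. Of 5 primary granule markers, 2 were higher and none lower. Of 5 erythroid markers, none was higher and 2 were lower, where 12.1% of all genes tested were called lower. Their median log2 fold change was -1.75. The 2 eosinophil markers and the 1 lymphoid marker tested had no call. Monocyte and macrophage markers had sums of 567 to 1089 RPM before and 768 to 2544 RPM after deletion. Of 8 tested, 1 was higher and 7 had no call, and 4 had a positive log2 fold change, with a median of 0.32. Ly6c2 alone averaged 768 RPM in the knockout, so the sums do not describe the list as a set. The monocyte, eosinophil and erythroid counts depended on the fit. With the library number as a block, 4 monocyte and macrophage markers were higher and 1 lower, where 28.0% of all genes tested were called. In that fit 1 eosinophil marker was higher and 1 lower, and 3 erythroid markers were lower. Leaving out both libraries numbered 4 gave 2 monocyte markers higher, 1 eosinophil marker higher and 1 lower, and 4 erythroid markers lower. That fit called 25.1% of all genes. In RNA from whole cultures, more cells of a type and more RNA per cell cannot be told apart, and the part of these markers in the stefin A levels was not tested.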

How the data were processed

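Strand-specific RNA-seq libraries were made from 2 µg of total RNA each, with 200 bp inserts, per the labels' protocols. Trimmomatic 0.39, kallisto and build mm10 are named in the submitters' processing notes. The aligner, annotation release and junction filter were not given in the sources used here. The deposited table holds a normalised signal per exon-exon junction, with AltAnalyze junction names per the file headers. Tested on the values, each signal was the read count plus 1, scaled by the library total and 60 nt, with 0 reads at a floor of 0.854. Whole reads were recovered for 100% of values above the floor, within 0.001 of a read.

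Reads were summed per gene and scaled to junction reads per 1000000 (RPM). Fragments crossing more than 1 junction enter more than once, and unspliced genes were not analysed here. The 11003 genes averaging at least 1 RPM were tested by limma 3.58.1, using trend and robust moderation of log2(RPM + 1), and p-values were adjusted by Benjamini and Hochberg over all of them, with a threshold of 0.05. This shrinks changes of genes near 1 RPM. The limma, edgeR and DESeq2 steps were tested on simulated data. A junction value was treated as dropped where it held at most 6 reads and at least 100 were predicted from other junctions of its gene, which touched 7630 junctions. Motifs and identities were computed in Python 3.11.15.

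The 3 genes and the gene lists were chosen with earlier results of these data known. Named beside the stefin A family were Cop1, up to 6 called members by adjusted p and the 2 highest uncalled members of each protease or inhibitor list, up to 4 called flanking genes and the nearest on each side, and the 5 genes of most similar pattern, for which symbols of the Gm or Rik kind were only counted.

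The labels' library numbers paired them: after subtracting group means, same-numbered libraries correlated at 0.32, 0.29, 0.36 and 0.55 for numbers 1 to 4, and at most at 0.15 between different numbers. The reported fit has no block. Alternatives were edgeR 4.0.16 and DESeq2 1.42.0 on recovered reads, TMM scaling, other pseudocounts and minimums, the block, each library left out, both libraries numbered 4 left out, dropped junctions left out, and the most-read junction alone.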

Additional observations from a re-analysis of the deposited data

Results flagged for a closer look

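Outlying libraries were sought on log2(RPM + 1) in 74 groups of 4 libraries (37 genes in wild type and knockout). In 5 of them, the gap between 1 library and the other 3 took up more of the range than Dixon's limit allows. The levels that follow are in RPM, so the size of the gap on the log2 scale cannot be read from them directly. Chance gives about 5% of groups, so 5 of 74 is close to that number. BC100530 had 1.46 RPM in wild-type library 4 and 21.5 to 29.7 RPM in the others. Gm5416 had 0.572 RPM in wild-type library 1 and 0 in the others. Ctsw had 8.52 RPM in wild-type library 3 and 13.6 to 14.5 RPM in the others. Rhbdf2 had 56.5 RPM in wild-type library 4 and 62.7 to 63.1 RPM in the others. Chil1 had 4.72 RPM in knockout 4 and 64.4 to 84.1 RPM in the others. Stfa2, Stfa2l1 and Stfa3 did not reach the limit in either group.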

How the results depend on the processing

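The log2 differences of Stfa2, Stfa2l1 and Stfa3 were larger in count models, at 9.56, 9.66 and 9.74 with edgeR and 9.63, 9.71 and 9.82 with DESeq2, and smaller with a pseudocount of 5, at 4.63, 4.21 and 4.19. Leaving out 1 library gave 5.997 to 7.51, 5.67 to 7.11 and 5.50 to 7.196. The small number of wild-type reads limits these sizes. Genes called higher and lower numbered 934 and 1330, but 1054 and 967 with edgeR and 1092 and 972 with TMM scaling, which moved the median of all genes by under 0.1. DESeq2 called 1633 higher. Leaving out 1 library gave 509 (without knockout 3) to 1249 (without knockout 4) higher and 706 to 1742 lower for the same libraries; without wild-type library 2 and knockouts 1 and 2 in turn, those higher were 557, 600 and 563. Cathepsins changed numbered 4, but 2 with a pseudocount of 5, with a minimum of 10 RPM or with the most-read junction, and 2 to 4 without 1 library. Flanking genes changed numbered 5, but 3 without a filter, 3 without both libraries numbered 4, 2 with the most-read junction, and 1 to 4 without 1 library. With the replicate block, 1357 genes were higher and 1727 lower; it added Ctsz, Lgmn, Serpinb6a, Parp9 and Retnlg (limma adjusted p = 0.0052, 0.020, 0.025, 0.023 and 0.048), ended the calls of Ccdc58 (0.077) and Polq (0.056) and changed no other call of a gene named in the text. Over all settings, single genes, shares and correlations kept direction and call in 428 values, lost the call in 73, gained it in 6 and changed sign in 23, all of the last for uncalled genes. Ctsc had 0.0686 with edgeR, 0.0837 with DESeq2, 0.0595 with TMM, 0.12 without dropped junctions, 0.31 with the most-read junction and -0.20 to 0.21 without 1 library. Cst7 had 0.0212, 0.0341 and 0.02 with edgeR, DESeq2 and TMM, and -0.19 to 0.0697 without 1 library. Spint2 had -0.0328 to 0.12 and Slc15a2 -0.35 to 0.0742 without 1 library, and Slc15a2 had 0.00679 without both libraries numbered 4.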
